A study of Mus musculus with 15 samples.

Results

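The ESCRT and Vps endosomal sorting genes were followed in the RNA of circulating extracellular vesicles (EVs), small membrane-bound particles that cells release into blood. Members were all gene symbols that begin with Chmp or Vps followed by a digit, plus Tsg101, Pdcd6ip, Hgs, Stam, Stam2 and Sdcbp, with pseudogene symbols that contain -ps left out. This gave 46 of the 43472 gene symbols in the count tables, of which 9 were Chmp genes, 31 were Vps genes and 6 were named singly. Reads were counted for 45 of them, and only Vps37d was at 0 in all 15 libraries.

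The libraries came from EVs of WT mice (C57BL/6, 3 libraries), dystrophic mice (Sgcb null, without the beta-sarcoglycan of the muscle membrane complex, 6 libraries) and hypertrophic mice (6 libraries), and the study asked whether the RNA that the vesicles carry differs between these conditions. The sample labels give MAGIC-F1 as the hypertrophic genotype, a transgene encoding an engineered HGF-derived factor that activates the Met receptor, whereas the methods of the study give a deletion of myostatin (Mstn-null) for the same libraries, so the genotype of this group is not certain. All mice were between 3 and 6 months old per the study's methods, untreated per the labels, and a sample was a pool of vesicles from 2 to 3 mice. The fluid was plasma per the series description and serum per the sample labels. The labels do not say which mice went into which library, so that p-values below measure the spread between these libraries. The methods list too few mice per genotype for 6 separate pools of 2 to 3 mice. Whether the 6 libraries of a condition are independent is thus not certain.

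The ESCRT machinery works in steps on the membrane of endosomes. ESCRT-0 gathers ubiquitinated cargo, ESCRT-I and ESCRT-II deform the membrane, ESCRT-III filaments made of CHMP proteins cut off the vesicle neck, and the VPS4 ATPases take the filaments apart. The vesicles that bud into the endosome are released as exosomes when it fuses with the cell surface, and syntenin (encoded by Sdcbp) with ALIX (Pdcd6ip) feeds syndecan cargo into this route. Most other Vps genes encode retromer, which returns receptors from endosomes, or tethers that bring endosomes, lysosomes and the Golgi together. VPS13 proteins move lipids between membranes. Vps72, Vps45 and Vps9d1 were taken in by symbol alone and placed in none of these groups.

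Several facts of the libraries bear on all values. WT replicate 1 had the fewest reads on genes (27227) and dystrophic replicate 6 the most (32563362), and the number of genes with a read ran from 797 to 8968. A count of 0 allows up to 3 reads, so in CPM (a gene's reads over all gene reads of the library, scaled to counts per 1000000) the limit of a 0 was 110 for the first of these libraries and 0.0921 for the second. Such limits hold for counting error alone, because the RNA was amplified before sequencing and copies are not independent molecules. In 6 libraries (dystrophic replicates 4 to 6, hypertrophic replicates 1 to 3) the number in the sample title belongs to the count table of a library of the other condition. The labels decided the condition here, and the main comparisons of dystrophic and hypertrophic libraries are also given with the 6 libraries exchanged. Of the genes of EV marker proteins, Cd9 had reads in every library (3924 to 33354 CPM), Cd81 in 11 and Cd63 in 10. RNA of blood cells was present throughout, since the reticulocyte genes Hbb-bs and Hba-a1 and the platelet genes Pf4 and Ppbp were counted in every library. In such bulk RNA, fewer vesicles from a cell type and less RNA per vesicle cannot be told apart.

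A member was in most cases either absent from a library or counted with many reads. Of the 690 combinations of member and library, 434 (62.9%) held no read, beside 71.0% over all genes with a read in any library. Of the 256 combinations with a read, 88.7% held 10 reads or more and 74.6% held 100 or more, beside 84.3% and 66.2% over all such genes. Zeros were more frequent than the depth predicts. The mean CPM in the other libraries of the same condition predicted 10 reads or more for 432 combinations, and 225 of them (52.1%) were at 0. Over all genes 56.1% of 90572 such combinations were at 0, and Poisson counting would leave 5.1e-05% of the members' combinations there. The patchiness was thus not particular to the members.

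**Figure D1:**
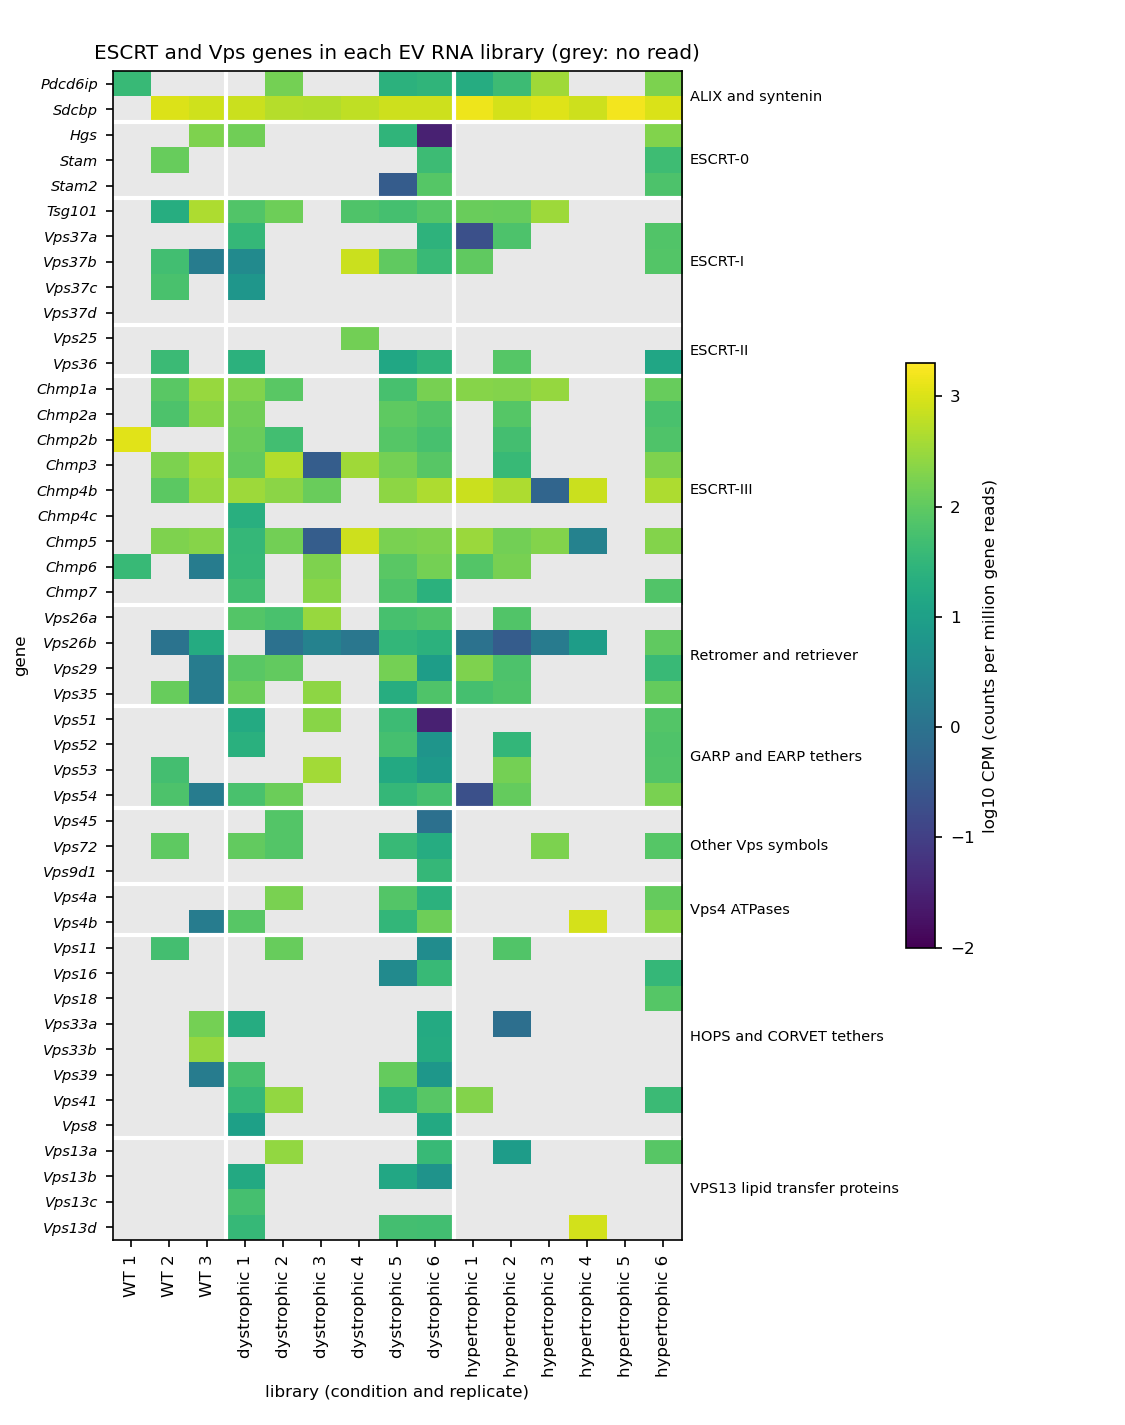
Level of each member (rows, grouped by role) in each of the 15 EV RNA libraries (columns) as log10 CPM on the colour scale, with grey where no read was counted. Sdcbp is the row filled in 14 of 15 libraries, most other rows are broken by grey, and hypertrophic replicate 5 holds Sdcbp alone.

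Single libraries labelled as one condition stood in sharp contrast. Hgs, the ubiquitin-binding subunit of ESCRT-0, had 1 read among the 32563362 of dystrophic replicate 6 but 167 reads among the 1170610 of dystrophic replicate 1. Vps51, a subunit shared by the GARP and EARP tethers, had 1 read in dystrophic replicate 6 and 601 in dystrophic replicate 3. Chmp7, an ESCRT-III protein that also acts at the nuclear envelope, had no read in WT or in 5 of the 6 hypertrophic libraries and 469 reads in hypertrophic replicate 6. In the same way 31 of the 33 member reads of WT replicate 1 fell on Chmp2b, which had none in WT replicates 2 and 3. Dystrophic replicate 6 is a crossed library, so the Hgs and Vps51 contrasts lie within 1 condition only as labelled. With the 6 crossed libraries exchanged, Chmp7 had reads in 2 dystrophic and 3 hypertrophic libraries.

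The number of members with a read varied widely within each condition. It was 3, 17 and 18 in the WT libraries. In the dystrophic libraries it ran from 7 to 40 with a median of 24.5, and in the hypertrophic libraries from 1 to 29 with a median of 11. The means were 12.7 ± 8.39 (SD, n = 3), 23 ± 13 (n = 6) and 13.3 ± 10.5 (n = 6), so that the conditions overlapped and differed by less than the spread within dystrophic libraries. With the 6 crossed libraries exchanged, the order of these conditions turned, with means of 17.3 in dystrophic and 19 in hypertrophic libraries. The count moved with the number of all genes detected, of which members made up between 0.123% and 0.635%. After sampling to the 27227 reads of the shallowest library, the number of members still ran from 1 in hypertrophic replicate 5 to 25.2 in hypertrophic replicate 6 (means of 20 draws).

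The summed level of the members varied much less than their number. It lay between 1212 and 4118 CPM in the 15 libraries, a 3.40-fold range, while the number of members with a read ran from 1 to 40. The WT libraries had 1212, 2319 and 3360 CPM. The dystrophic libraries had 2176 to 3123 CPM (median 2817) and the hypertrophic libraries 1631 to 4118 CPM (median 3134). The group means of 2297 ± 1074, 2783 ± 336 and 2996 ± 876 CPM (SD) lay within 1 SD of the hypertrophic libraries of each other. The 7 members of dystrophic replicate 4 summed to 2753 CPM and the 40 of dystrophic replicate 6 to 3042 CPM. In the former, Chmp5 (806 CPM), Vps37b (743 CPM) and Sdcbp (632 CPM) made up most of the sum. With the 6 crossed libraries exchanged, the mean sums were 2848 CPM in dystrophic and 2932 CPM in hypertrophic libraries.

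**Figure D2:**
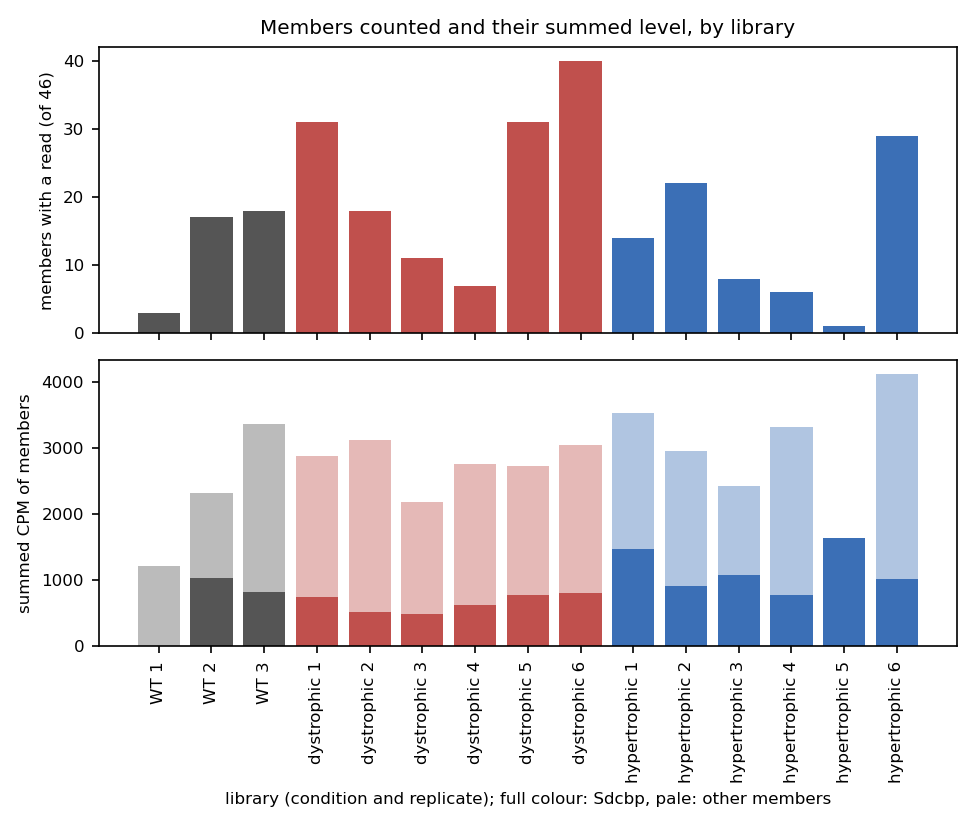
Number of members with at least 1 read (upper bars) and summed CPM of all members (lower bars, full colour Sdcbp, pale all other members) in each library, coloured by condition. The number runs from 1 to 40, while the sum stays between 1212 and 4118 CPM.

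Syntenin was the one member counted almost everywhere. Sdcbp (ENSMUSG00000028249.15, chr4:6365650-6408423 of mm10, plus strand), the adaptor that links syndecans to ALIX, was at 0 only in WT replicate 1, where a count of 0 allows up to 110 CPM. It had 1035 and 830 CPM in the other WT libraries. In the dystrophic libraries it ran from 488 to 801 CPM with a median of 689, and in the hypertrophic libraries from 778 to 1631 CPM with a median of 1044. It supplied between 16.6% and 100% of all member reads in the 14 libraries that held it, and in hypertrophic replicate 5 its 536 reads were the only ones on any member.

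Of the 6 hypertrophic libraries, 5 lay above all dystrophic libraries in Sdcbp, and hypertrophic replicate 4 (778 CPM) fell below dystrophic replicate 6 (801 CPM). The mean was 1148 ± 332 CPM in hypertrophic and 659 ± 134 CPM in dystrophic libraries (SD, n = 6 each), a 1.74-fold ratio. The exact two-sided permutation test of the CPM, chosen after these values were seen, gave p = 0.00433. Adjusted over the 6887 genes tested, this exact permutation p was 0.849, so the difference did not pass. With 6 libraries in each condition, the exact permutation test cannot give a p below 0.00216, and 0 genes passed after adjustment. With such a floor over so many genes, the adjusted value cannot decide whether Sdcbp differed. Sdcbp was the only 1 of 34 tested members with an unadjusted p under 0.05 in this permutation test, beside 3.15% of all genes. The edgeR quasi-likelihood test, which scales the libraries by TMM factors, gave a log2 fold change of 0.40 (SE 1.07, adjusted p = 0.9998).

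The Sdcbp difference depended on how libraries were scaled and assigned. With the TMM library sizes its mean was 1038 CPM in hypertrophic and 786 CPM in dystrophic libraries (exact permutation p = 0.242). With the 6 crossed libraries exchanged, the means were 938 and 870 CPM (exact permutation p = 0.745). In the libraries whose titles carry the lower numbers the difference was 571 CPM, and in those with the higher numbers 407 CPM, with exact permutation p-values of 0.1 and 0.2, where 3 against 3 libraries cannot go below 0.1. Against WT, the exact permutation p was 0.786 for dystrophic and 0.190 for hypertrophic libraries, with WT replicate 1 at 0. All dystrophic libraries lay below WT replicates 2 and 3, and hypertrophic libraries lay on both sides of them.

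Several marker lists also differed between these conditions. The summed level of 6 platelet genes, of which Pf4, Ppbp and Gp9 were counted in all 15 libraries, was 9547 to 20524 CPM in dystrophic and 15217 to 33350 CPM in hypertrophic libraries, with 4 to 6 of the 6 genes counted in each. The 3 genes of EV marker proteins had a mean sum of 8102 CPM in dystrophic and 16752 CPM in hypertrophic libraries. Nearly all of it was Cd9, as Cd63 and Cd81 did not pass 551 and 596 CPM. Also higher on average in hypertrophic libraries were monocytes (5 genes, 1060 and 1685 CPM), lymphocytes (6 genes, 317 and 509 CPM) and liver (5 genes, 48.9 and 709 CPM, with libraries at 0 in both conditions). All these ranges overlapped. Of the monocyte genes only Lyz2 was counted in all 15 libraries, and hypertrophic libraries held 1 to 2 of the 5. The sum of 7 reticulocyte genes went the other way, at 47208 to 155950 CPM in dystrophic and 29999 to 88291 CPM in hypertrophic libraries, with 5 to 7 genes counted. So did that of 6 neutrophil genes, with means of 459.6 and 316.5 CPM. These sums were not recomputed with the 6 crossed libraries exchanged. The part of these sources in the Sdcbp values was not tested. Its partner ALIX was scarcer: Pdcd6ip had reads in 8 libraries, at 19.5 to 347 CPM, and 7 libraries held 10 reads or more of both genes.

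The 9 members of ESCRT-III had a read in 73 of 135 combinations (54.1%), and dystrophic replicate 1 held all 9. Per kilobase of exons, Chmp4b (137 CPM per kb, mean of 15 libraries) stood at the level of Sdcbp (123) and Chmp5 (116), ahead of Chmp2b (54.3), Chmp2a (43.0), Chmp3 (40.1) and Chmp1a (35.2). These levels depend on the merged exons of all annotated transcripts, 6904 bases for Sdcbp, 2027 for Chmp4b and 1519 for Chmp5. Which transcripts were present was not tested. The order of the first 3 is not resolved. The SD of each gene's CPM over the libraries was close to its mean or above it for Chmp4b and Chmp5 and 0.463 of the mean for Sdcbp. The place of Chmp2b rests on the 31 reads of WT replicate 1, which made up 72.5% of its summed CPM.

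Chmp4b (chr2:154651705-154694785), the main filament-forming CHMP4, was counted in 12 libraries. The WT libraries had 0, 93.3 and 303 CPM, the dystrophic 0 to 438 CPM (median 245) and the hypertrophic 0 to 747 CPM (median 442). All 3 conditions reached down to 0, and the highest values, 747 and 743 CPM, were in hypertrophic replicates 4 and 1. Chmp5 (chr4:40948407-40965303), a regulator of the late steps that binds the VPS4 cofactor LIP5, was counted in 13 libraries. It had 0, 185 and 216 CPM in WT, 0.373 to 806 CPM (median 158) in dystrophic and 0 to 324 CPM (median 179) in hypertrophic libraries. Its highest value, in dystrophic replicate 4, was one library's, as the other dystrophic libraries stayed at or under 188 CPM.

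Chmp3 (chr6:71543797-71582609), which polymerizes together with CHMP2A, had reads in all 6 dystrophic libraries but in 2 of the 6 hypertrophic libraries. It had 0, 178 and 367 CPM in WT, 0.373 to 494 CPM (median 129) in dystrophic, and 0 in 4 hypertrophic libraries with 37.4 and 187 CPM in replicates 2 and 6. The conditions overlapped, and 1 dystrophic library held a single read. With the 6 crossed libraries exchanged, Chmp3 had reads in 4 of 6 libraries of either condition. Chmp1a (chr8:123204264-123212763), a late-acting subunit, was counted in 10 libraries, at 0 to 301 CPM in WT, 0 to 197 in dystrophic and 0 to 290 in hypertrophic libraries. Of its 50-base stretches, 6.73% also occur in the pseudogene Gm8515. Of the remaining members, Chmp6, the link from ESCRT-II, had reads in 8 libraries, Chmp2a and Chmp2b in 7 each, Chmp7 in 5 and Chmp4c in 1. Core filament partners, that is Chmp4b, Chmp3 and at least 1 of Chmp2a and Chmp2b with 10 reads or more each, occurred together in 8 libraries.

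Members of the earlier ESCRT complexes had reads in fewer combinations than those of ESCRT-III. The shares were 33.3% for ESCRT-I, 24.4% for ESCRT-0, 23.3% for ESCRT-II and 33.3% for the later-acting VPS4 ATPases. Over all genes with a read in any library, 71.0% of combinations held none. The member rule left out the ESCRT-I subunits Ubap1, Mvb12a and Mvb12b, counted in 11, 7 and 8 libraries, and the ESCRT-II subunit Snf8, in 7. The shares therefore do not describe whole complexes. Tsg101 (chr7:46888949-46919969), the ESCRT-I subunit that binds ubiquitin and viral late domains, was counted in 10 libraries. It had 0, 19.8 and 445 CPM in WT, 0 to 137 CPM (median 71.7) in dystrophic and 0 to 326 CPM (median 58.7) in hypertrophic libraries, so every condition included 0 and the WT libraries spanned the whole range. Because 18.3% of its 50-base stretches also occur in the pseudogene Tsg101-ps, its counts are uncertain to that extent.

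Vps37b (chr5:124004641-124032270), an ESCRT-I subunit that joins TSG101, was counted in 8 libraries. It had 0, 1.66 and 48.6 CPM in WT, 0 to 743 CPM (median 21.6) in dystrophic and 0 to 103 CPM in hypertrophic libraries, 4 of which were at 0. Dystrophic replicate 4 alone held 66.7% of its summed CPM. Its exons overlap those of Hip1r on the other strand, and 39.7% of its 50-base stretches are shared on either strand, so reads of the pair can be told apart only if the counting used strand, which the sources leave uncertain. Tsg101 and any Vps37 gene reached 10 reads together in 7 libraries. Hgs with Stam or Stam2, the ESCRT-0 partners, did so in hypertrophic replicate 6 alone. Vps25 and Vps36, both of ESCRT-II, were never counted in the same library. Vps25 had reads in dystrophic replicate 4 alone, and 59.2% of its stretches are shared with its neighbour Ramp2, so these reads are uncertain. Vps4a and Vps4b reached 10 reads together in 3 libraries.

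Retromer was the best represented of the other groups, with reads in 58.3% of combinations. Vps26b (chr9:27007771-27030065), one of the paralogous VPS26 subunits, was counted in 12 libraries, but with 1 to 9 reads in 8 of them, where no other member had so few reads in more than 2. It had 0, 1.03 and 18.3 CPM in WT, 0 to 32.5 CPM (median 1.74) in dystrophic and 0 to 102 CPM (median 1.27) in hypertrophic libraries. In dystrophic replicates 5 and 6 and hypertrophic replicate 6 it had 94, 840 and 658 reads. None of its 50-base stretches is shared with another gene.

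Vps35 (chr8:85260392-85299802), the retromer scaffold, was counted in 9 libraries. It had 0, 1.66 and 115 CPM in WT, 0 to 249 CPM (median 43.8) in dystrophic and 0 to 112 CPM (median 27.9) in hypertrophic libraries. The WT value of 1.66 CPM was a single read. Vps29, Vps35 and at least 1 of Vps26a and Vps26b reached 10 reads together in 5 libraries, 3 dystrophic and 2 hypertrophic as labelled. Of these, dystrophic replicates 5 and 6 and hypertrophic replicate 2 are crossed libraries. Vps54 (chr11:21239281-21321136), which anchors the GARP tether at the Golgi, was counted in 9 libraries, at 0 to 67.6 CPM in WT, 0 to 126 in dystrophic and 0 to 168 in hypertrophic libraries. The GARP and EARP genes had reads in 41.7% of combinations, the HOPS and CORVET tethers in 21.7% and the VPS13 genes in 20%. Vps8, Vps33b, Vps37c and Vps45 had reads in 2 libraries each, and Vps9d1, Vps13c, Vps18, Vps25 and Chmp4c in 1 each.

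**Figure D3:**
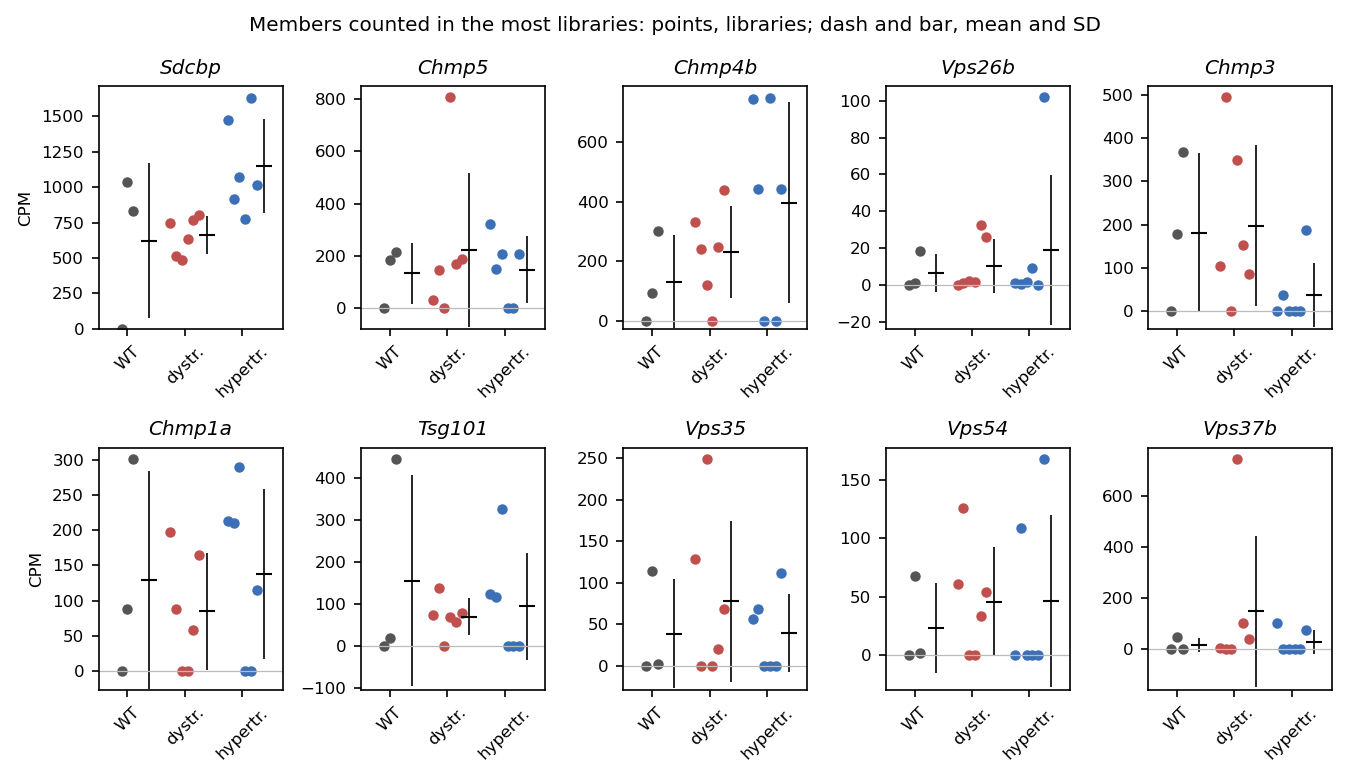
CPM of the 10 members counted in the most libraries, 1 panel each on its own scale, with 1 point per library and the mean and SD of each condition beside the points. Outside Sdcbp every condition includes libraries at or near 0, and single libraries such as dystrophic replicate 4 for Chmp5 (806 CPM) and Vps37b (743 CPM) set the highest values.

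Differences between conditions were tested with the edgeR quasi-likelihood test over all 6887 genes that passed the filter on low counts, 34 of them members. A member could pass the filter through the condition where it was counted, so these 34 are not all members. None was called at an adjusted p under 0.05 in any comparison, as for nearly all genes. Between dystrophic and WT libraries 0 of 34 members were called, beside 0.0145% of all genes, and 0 members had an unadjusted p under 0.05, beside 2.02%. Between hypertrophic and WT libraries 0 members were called (all genes 0.0290%), and 1 had an unadjusted p under 0.05 (all genes 8.02%). Between hypertrophic and dystrophic libraries 0 members were called (all genes 0.0145%), and 2 had an unadjusted p under 0.05 (all genes 12%). These counts of 0, 1 and 2 of 34 members are too small to set the members apart from all genes. The exact permutation test of CPM, chosen after the data were seen, gave an unadjusted p under 0.05 for 0 members against WT in dystrophic libraries (all genes 1.26%), for 0 in hypertrophic libraries (all genes 0.784%) and for Sdcbp alone between hypertrophic and dystrophic libraries. No member passed after adjustment of the exact permutation p, with a smallest adjusted p of 0.849 over all genes. The smallest p the exact permutation test can give is 0.0238 against WT and 0.00216 between hypertrophic and dystrophic libraries. With these floors over 6887 genes, its adjusted p cannot decide whether a member differed.

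DESeq2 on the same counts called 8 of the 30 members that it gave an adjusted p in dystrophic against WT libraries (all genes 21.1%), 8 of 30 in hypertrophic against WT (all genes 24.5%) and 0 of 30 in hypertrophic against dystrophic (all genes 5.17%). The 8 were the same in both comparisons with WT, namely Chmp7, Vps4a, Vps13a, Vps26a, Vps37a, Vps41, Vps51 and Vps52, and none of them had a read in any WT library. In all, 20 members were at 0 in every WT library, 11 in every hypertrophic library and 2 in every dystrophic library, with 3, 6 and 6 libraries of unequal depth behind these counts. With the 6 crossed libraries exchanged, 4 members were at 0 in every hypertrophic and 8 in every dystrophic library. As labelled, 29.4% of the members tested were at 0 throughout WT or dystrophic libraries, beside 31.9% of all genes tested. For hypertrophic and WT libraries it was 32.4% beside 37.3%, and for hypertrophic and dystrophic libraries 5.88% beside 9.79%. Among the genes tested, the share at 0 was thus not higher for members than for all genes. The filter on low counts shapes these shares, because a gene could pass it through the other condition. They cannot decide whether members as a whole were at 0 more often than other genes. The counts of members at 0 in every library of a condition were not compared with all genes.

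The fitted log2 fold changes of the 34 members had a median of 0.86 in dystrophic against WT libraries, beside 1.38 over all genes tested. The medians were 0.66 beside 0.66 in hypertrophic against WT and -0.34 beside -0.52 in hypertrophic against dystrophic libraries. Members followed the shift of all genes in sign. With genes that were at 0 throughout a condition set to the bound that 3 reads per library allow, the members' medians were 0.27, 0.00 and -0.34, beside 0.00, 0.00 and -0.51 over all genes. Without TMM the medians of all genes moved to 1.57, 1.02 and -0.37, and those of the members to 1.42, 0.92 and -0.66. The biological coefficient of variation, the typical relative SD of a gene between libraries of a condition in this fit, was 3.04.

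**Figure D4:**
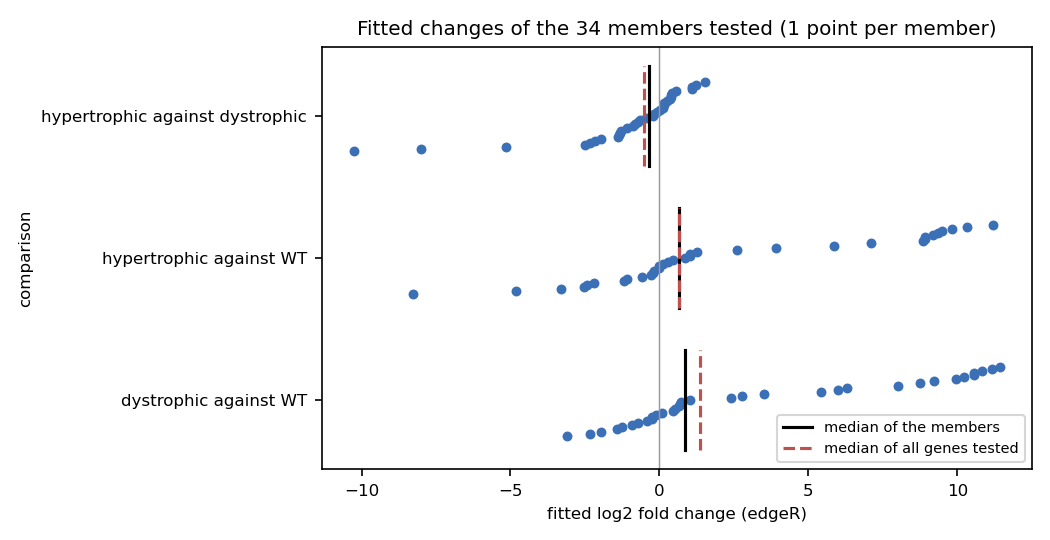
Fitted log2 fold changes of the 34 members tested, 1 point per member in each of the 3 comparisons, with the median of the members (solid line) and of all 6887 genes tested (dashed line). No point passed the adjusted threshold, and the points beyond 5 in size belong to members at or near 0 throughout one condition.

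The members with the smallest p-values were at or near 0 throughout one condition or counted in single libraries. Vps26a, the retromer subunit that pairs with VPS35, had no read in WT and reads in 5 of 6 dystrophic libraries, at 57.4 to 301 CPM there and 93.8 ± 105 CPM on average. This mean is 2.43-fold the mean WT limit of 38.5 CPM, which WT replicate 1 sets, and the edgeR adjusted p was 0.43. Limits here and below hold for counting error alone, so these folds are no lower bounds on a change. Vps41, a subunit of the HOPS tether that brings late endosomes to lysosomes, had no read in WT and reads in 4 of 6 dystrophic libraries, with a mean of 70.7 ± 105 CPM. That mean was 1.84-fold the WT limit (edgeR adjusted p = 0.43).

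In hypertrophic against WT libraries, Vps33a, which guides SNARE assembly in HOPS, had 94 reads in WT replicate 3 alone among WT libraries and 5 reads in hypertrophic replicate 2 alone among hypertrophic libraries. Its fitted log2 change was -8.27 (SE 3.97, edgeR adjusted p = 0.43), and without WT replicate 3 it was 2.88. Vps13d, a lipid transfer protein that acts on mitochondria, had 389 reads in hypertrophic replicate 4 alone among WT and hypertrophic libraries, or 862 CPM there. Its hypertrophic mean was 3.73-fold the WT limit (edgeR adjusted p = 0.43). Both values rested on 1 library each.

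Between hypertrophic and dystrophic libraries, Vps39, a subunit of the HOPS tether, had 67, 316 and 206 reads in dystrophic replicates 1, 5 and 6 and no read in any hypertrophic library. Its dystrophic mean of 28.8 ± 45.4 CPM was 9.14-fold the mean hypertrophic limit of 3.15 CPM (edgeR adjusted p = 0.12), while its dystrophic median was 3.16 CPM. Vps13b, a VPS13 protein of the Golgi, was counted in the same 3 dystrophic libraries, with 19, 44 and 171 reads, and in no hypertrophic or WT library. Its dystrophic mean was 6.12 ± 7.72 CPM, 1.94-fold that limit (edgeR adjusted p = 0.12), and its dystrophic median was 2.63 CPM. These 3 libraries were also the dystrophic libraries with the most genes detected, and 2 of them carry crossed numbers. With the 6 libraries exchanged, the fitted log2 changes turned to 1.22 for Vps39 and 0.56 for Vps13b (edgeR adjusted p = 0.9997 for both).

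Of 25 other genes of ESCRT and retromer sorting, 24 were counted in at least 1 library, and 166 of their 375 combinations with libraries held a read (44.3%). Becn1, a subunit of the endosomal and autophagic PI3-kinase complex, was counted in 13 libraries, the retromer-associated sorting nexin Snx5 in 12, and the ESCRT-I subunit Ubap1 and the nexin Snx3 in 11 each. Of these genes 20 were tested, and edgeR called 0 of them in each comparison. At an unadjusted p under 0.05 there were 2 higher and 0 lower in dystrophic against WT (all genes 2.02%), 2 higher and 0 lower in hypertrophic against WT (all genes 8.02%), and 0 in hypertrophic against dystrophic libraries (all genes 12%).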

How the data were processed

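Bulk RNA-seq of EV RNA was analysed for 15 libraries. The authors deposited raw counts per gene symbol, with no normalization. Per the labels and the methods of the study, single reads were aligned with TopHat to mm10, and the labels also name HTSeq and DESeq, with no versions. The labels and the methods name different library kits, so whether counting used strand is uncertain, and amplification before sequencing can multiply single molecules. The 5 summary rows, 57.9% to 99.2% of each table's sum, were left out. CPM was computed over all 43472 gene rows.

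Condition came from the labels, and replicate numbers are in accession order and pair nothing. edgeR 4.0.16 (R 4.3.3) was used with TMM, filterByExpr and a quasi-likelihood fit of the 3 conditions to all libraries, with Benjamini-Hochberg adjustment over all 6887 genes. SEs came from the F statistic. DESeq2 1.42.0 and the exact permutation test (2 times the smaller one-sided p) were alternatives, the latter chosen after the data were seen. Scripts were tested on simulated data. For edgeR these had equal depths and less spread between libraries than the data here. The check therefore does not show whether edgeR would call a changed member in these libraries. Levels per kilobase used merged exons of GENCODE M21, which also gave gene positions and 50-base stretches shared between genes, and all 46 members matched by symbol.

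Values in every library are given for the 10 members counted in the most libraries, and fold changes for called members and the 2 with the smallest p in each comparison, with Sdcbp, Hgs, Vps51, Chmp7 and Chmp2b added after their values were seen. The members, roles and lists were chosen with earlier results of these data known.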

Additional observations from a re-analysis of the deposited data

Results flagged for a closer look

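Dixon's test was applied to 24 sets of 6 libraries. These were the number of members, their summed CPM and the CPM of the 10 members counted most widely, each in dystrophic and hypertrophic libraries. In 5 sets 1 library stood far above the rest. About 1 in 20 would be flagged by chance in normally distributed values. CPM values with many zeros are not so distributed, so the number flagged does not show an excess. Chmp5 stood at 806 CPM in dystrophic replicate 4, with a gap of 0.767 of the group's range. Vps37b stood at 743 CPM in the same library, with a gap of 0.865. Vps26b stood at 102 CPM in hypertrophic replicate 6, with a gap of 0.913, and Chmp3 at 187 CPM in that library, with a gap of 0.80. Tsg101 stood at 326 CPM in hypertrophic replicate 3, with a gap of 0.625, just past the critical value. Neither the number of members nor their summed CPM was flagged in either condition. The 3 WT libraries are too few for this test.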

How the results depend on the processing

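No paired analysis was possible because the labels give no numbers that pair libraries between conditions. With a covariate for the lower or higher title numbers, edgeR still called 0 members, and the fitted log2 change of Vps13d was 4.68 in place of 11.18. In 332 recomputations of 18 results, the number of members called by edgeR stayed at 0 under each alternative scaling, filter and grouping and without each library, whereas DESeq2 called 8 members in each comparison with WT. The exchange of the 6 crossed libraries turned the order of dystrophic and hypertrophic means of members detected (17.3 and 19 in place of 23 and 13.3). With genes of mitochondria and hemoglobin left out of the totals, the mean summed CPM rose in all 3 conditions. It was 3118 in WT, 3513 in dystrophic and 3605 in hypertrophic libraries, in place of 2297, 2783 and 2996. With 50 predicted reads required, 42.4% of combinations were at 0. The fitted log2 changes that turned were those of Vps39 (1.22) and Vps13b (0.56) after the exchange of 6 libraries and of Vps33a (2.88, in a range of -10.66 to 2.88 without single libraries) without WT replicate 3, and that of Vps13d was 0 without hypertrophic replicate 4. DESeq2 called Vps26a and Vps41 in dystrophic against WT libraries. The Sdcbp difference of 489 CPM, chosen after the data were seen, stayed between 392 and 563 CPM without any 1 library (exact permutation p of 0.00433 or 0.00866). It was 566 CPM without mitochondrial and hemoglobin genes, 252 with TMM library sizes, 68.1 after the exchange and 557 in the libraries with matching numbers. The depth of WT replicate 1 limits what a 0 in WT means for members under 110 CPM. The cause of these changes was not tested.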
